A study of Homo sapiens with 6 samples.

Results

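Open chromatin in gene deserts was examined in MM.1S cells. A region belonged to this set when its midpoint lay more than 200 kb from every protein-coding transcription start site (TSS) and outside every protein-coding gene body, by the GENCODE release 44 annotation of hg38. Members were selected on the peak calls themselves, since 2 or more of a group's 3 libraries had to have a peak there. Joining peaks of the 6 lists that shared 1 bp or more gave 89196 regions on chromosomes 1 to 22, X and Y, of which 70969 met this call rule (reproducible regions) and 7186 of those lay in deserts. MM.1S is an established line derived from multiple myeloma, a cancer of plasma cells. The cells received 120 nM CB-6644, an inhibitor of the ATPase activity of RUVBL1 and RUVBL2, for 72 h, or the vehicle DMSO, and live cells were sorted before Omni-ATAC. This assay uses a transposase that cuts accessible DNA, so that sequenced fragments pile up at open sites. Each group had 3 libraries of the same cell line, and as the sources do not state separate cultures, p-values measure the spread between these libraries.

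Gene deserts are long stretches of the genome without protein-coding genes. Open regions inside them are often distal enhancers, which contact the promoter of a remote gene through chromatin looping, and several developmental and cancer genes, MYC and SOX9 among them, are flanked by deserts with such enhancers. RUVBL1 and RUVBL2 are AAA+ ATPases shared by remodeling complexes such as INO80, SRCAP and TIP60, which move or exchange nucleosomes.

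The deserts were not empty of annotation. Of the 7186 members, 2639 (36.7%) overlapped a long non-coding RNA (lncRNA) gene, against 20.7% of all reproducible regions. Another 38 overlapped immunoglobulin or T cell receptor gene segments, which the annotation does not class as protein-coding genes. Of these, 21 lay at IGH, 7 at TRA, 6 at IGK, 3 at TRB and 1 at TRD. Some 588 members (8.18%) lay within 1 Mb of an assembly gap of at least 50 kb, against 4.81% of all reproducible regions, and 353 were near-identical copies of another reproducible region (at least 90% identity over at least 80% of their length), where the placing of reads is uncertain.

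The sequences around the summits of 11 members are shown because they stand for the kinds of region described here: the strongest, those called in 1 group only, and those whose rank moved most. Each is 101 bases of the plus strand of hg38, centred on the strongest summit, and capitals mark a match to 1 of the 12 motifs searched, in either direction. The motif letters were TGATGNAA for ATF4-CEBP, TGANTCA for AP-1, TGCTGAC for MAF, CAGGTG for the E-box, TGTGGTT for RUNX, CCAATCA for NFY, CCGGAAG for ETS and TGACGTCA for CRE. IRF was searched as 2 GAAA repeats 2 bases apart, and CTCF, NF-kB and MEF2 by their longer consensus.
Strong region near NFE2L3 (chr7:25862557-25862657): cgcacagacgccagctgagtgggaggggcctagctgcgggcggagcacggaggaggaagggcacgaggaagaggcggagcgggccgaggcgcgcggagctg
Strong region near PKDCC (chr2:41840862-41840962): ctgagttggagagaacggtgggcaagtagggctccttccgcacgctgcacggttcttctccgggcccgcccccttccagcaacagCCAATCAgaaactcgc
Strong region near MAP3K1 (chr5:56589019-56589119): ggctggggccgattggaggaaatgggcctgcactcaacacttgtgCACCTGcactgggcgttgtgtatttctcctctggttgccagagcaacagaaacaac
Mitochondrial-like region in the KCNJ18–WSB1 desert (chr17:22521354-22521454): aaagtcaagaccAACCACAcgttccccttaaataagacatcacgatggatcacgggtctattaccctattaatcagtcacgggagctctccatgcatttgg
DMSO-only region near TFEC (chr7:115707430-115707530): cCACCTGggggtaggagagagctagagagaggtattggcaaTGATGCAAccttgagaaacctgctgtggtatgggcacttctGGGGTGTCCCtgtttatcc
DMSO-only region near KCND2 (chr7:119975117-119975217): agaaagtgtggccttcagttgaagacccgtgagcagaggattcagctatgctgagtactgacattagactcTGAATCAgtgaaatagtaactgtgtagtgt
CB-6644-only region near CCDC54 (chr3:107143386-107143486): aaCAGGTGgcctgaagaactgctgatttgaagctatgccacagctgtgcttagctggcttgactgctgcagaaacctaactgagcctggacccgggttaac
CB-6644-only region near ADGRL4 (chr1:79568560-79568660): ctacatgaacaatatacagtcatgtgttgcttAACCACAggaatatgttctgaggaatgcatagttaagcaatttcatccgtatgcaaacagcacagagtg
Region of lower rank in the IFTAP–LRRC4C desert (chr11:37450747-37450847): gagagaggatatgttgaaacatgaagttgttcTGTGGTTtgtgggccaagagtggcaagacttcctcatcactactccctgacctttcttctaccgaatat
Region of higher rank near SEMA6A (chr5:117131208-117131308): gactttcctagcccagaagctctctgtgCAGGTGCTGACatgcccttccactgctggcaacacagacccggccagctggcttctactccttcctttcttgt
Region of higher rank in MMADHC-DT (chr2:149885550-149885650): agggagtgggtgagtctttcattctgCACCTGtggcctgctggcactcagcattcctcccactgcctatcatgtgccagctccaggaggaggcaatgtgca
The regions near NFE2L3 and PKDCC were rich in G and C, with 72.1% and 60.2% over the 201 bases around the summit. The CB-6644-only region near ADGRL4 had 35.8%. In the region near SEMA6A an E-box and a MAF match shared bases.

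The peak lists held 58563 to 79020 peaks. Read totals are absent from the lists, and depth was judged by the background that the peak caller assumed, worked out from fold and p. This background amounted to 5.67, 3.20 and 7.05 tags per kb in replicates 1 to 3 with CB-6644, and to 6.40, 9.08 and 8.09 in those with DMSO. CB-6644 replicate 2 and DMSO replicate 1 stood apart, with shortest peaks of 65 and 91 bp against 131 to 152 bp in the others, and are called short-fragment libraries. All 8 plasma cell markers checked, among them SDC1, TNFRSF17 and IRF4, had a promoter peak in every library. Of the B cell markers, PAX5 and CIITA had one in all 6 libraries and MS4A1 and CD22 in none. The T cell markers CD3D, CD3E, CD3G and CD2 and the myeloid markers LYZ, CSF1R and FCGR1A had none in any library, whereas CD8A and CD14 had one in all 6 and ITGAM in 5.

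Deserts made up 23.8% of the sequence but held 10.1% of the reproducible regions. There were 10.3 members per Mb of desert, against 23.6 regions per Mb in the other intergenic sequence, 21.8 in gene bodies and 208 within 1 kb of a protein-coding TSS. Desert peaks were also weaker. The measure of strength was the percentile of a peak's −log10 p within its own list, which needs no scaling between libraries. Over all peaks of each list, the median was at percentile 36.8 in deserts and 44.4 in other intergenic sequence, a difference of −7.63 ± 0.740 (SD, n = 6 libraries), with a range of −8.26 to −6.35. All 6 libraries showed this direction (exact two-sided sign flip test, p = 0.031, the smallest that 6 libraries allow, 0.0469 after Benjamini-Hochberg adjustment over 6 tests). The median fold enrichment over background was 12.9 in deserts and 13.7 elsewhere between genes, and desert peaks were 22.2 bp narrower. Of desert peaks 2.19% ranked in the top decile of their list, against 4.21% of other intergenic peaks.

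The question of the treatment was whether RUVBL1/2 inhibition moved open chromatin in or out of deserts. The desert share of the peak list was 9.29, 10.2 and 10.2% in DMSO replicates 1 to 3 and 9.27, 7.35 and 9.03% in CB-6644 replicates 1 to 3. Each CB-6644 library thus lay below each DMSO library, although the closest pair, at 9.27 and 9.29%, lay almost together. The means were 8.55 ± 1.05% and 9.88 ± 0.506% (SD, n = 3 each), a difference of −1.33 percentage points (two-sided exact permutation, p = 0.1, as low as 3 against 3 libraries can go). The difference fell to −0.728 without CB-6644 replicate 2, the shallowest library by the background measure (exact permutation test, p = 0.2). With lists of equal length, keeping the 58563 strongest peaks of each library, it was −0.620 (exact permutation test, p = 0.6).

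**Figure D1:**
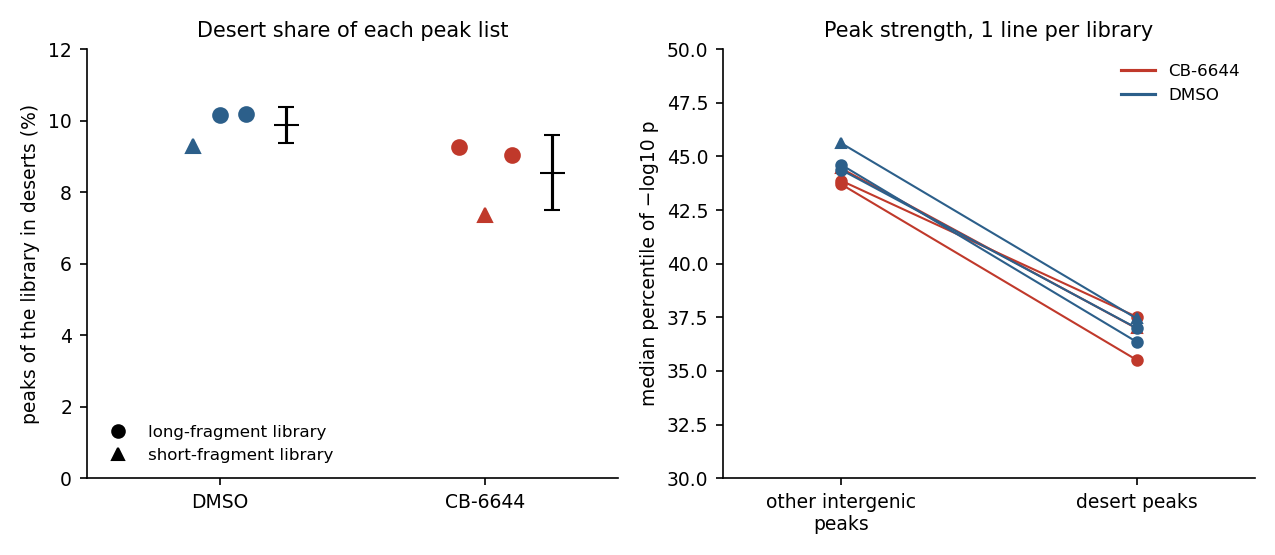
Left, the percentage of each library's peaks that lay in deserts, with the group mean and SD beside the points. The CB-6644 libraries sit at 7.35 to 9.27% and the DMSO libraries at 9.29 to 10.2%. Right, the median percentile of −log10 p of other intergenic and of desert peaks, 1 line per library, on an axis that starts at 30. Every line falls, with differences of −8.26 to −6.35 percentiles.

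Of the 7186 members, 6145, 6586 and 6195 had a peak in DMSO replicates 1 to 3 and 5142, 4191 and 4976 in CB-6644 replicates 1 to 3. All 6 libraries called 3072 members (42.7%), against 54.5% of other intergenic and 59.3% of all reproducible regions. All 3 DMSO libraries and no CB-6644 library called 674 members, here DMSO-only. That was 9.38% of the members (95% Wilson interval 8.73 to 10.1, which covers counting error only). The DMSO-only share was 5.66% over all reproducible regions and 5.61% in other intergenic regions. It was 7.24% in gene bodies and 1.06% within 1 kb of a protein-coding TSS. The reverse pattern, CB-6644-only, was seen in 66 members (0.918%), where the share of all reproducible regions was 0.737%. There were 10.2 DMSO-only members for each CB-6644-only member, and 7.68 over all reproducible regions. These are descriptions and carry no test, as the calls also chose the members. Of the other members, 657 had a call in 2 DMSO libraries and none with CB-6644, 133 in 2 CB-6644 libraries and none with DMSO, and the rest had calls in both groups.

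The background measure moved with these calls: its mean was 5.31 tags per kb in the CB-6644 libraries and 7.86 in the others, and its part in the counts was not tested. With lists of equal length the DMSO-only members numbered 276 and the CB-6644-only members 133. In the 4 long-fragment libraries alone, where 2 libraries of each group decide, the counts were 1150 and 200. The CB-6644-only count moved from 66 to 100, 130 and 100 without CB-6644 replicates 1, 2 and 3 and to 123 without DMSO replicate 1.

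Weak regions were more often DMSO-only in each of the 3 classes split by strength, which were desert, other intergenic and genic. Members were therefore also compared with other intergenic regions by quintile of mean percentile over the libraries with a call. DMSO-only regions were placed by DMSO lists alone and others by lists of both groups. The quintiles thus depend on the calls and match strength only roughly. In the weakest quintile of all reproducible regions 13.5% of the 2084 members and 10.7% of 4825 other intergenic regions were DMSO-only. The next quintile gave 13.4 against 8.84%, and the middle quintile 7.60 against 4.38%. In the second strongest quintile the shares were 1.62 and 1.20%, and in the strongest 1 of 458 members and 3 of 2540 other intergenic regions were DMSO-only, with overlapping intervals in both. Regions inside genes came closer to the members, at 12.7, 11.3 and 6.14% in the 3 weaker quintiles, with intervals that overlapped those of the members. In the second strongest quintile they stood at 1.66%. Against other intergenic regions, the member share was also the higher on all 20 chromosomes that held at least 100 members, where it ran from 6.54 to 12.3%.

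**Figure D2:**
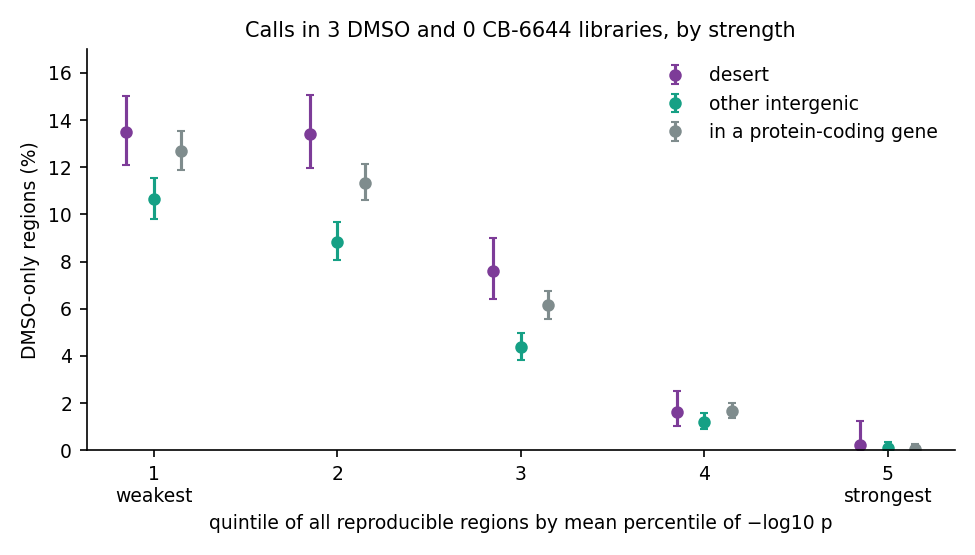
Percentage of regions called in 3 DMSO and 0 CB-6644 libraries, by quintile of all reproducible regions ordered by mean percentile of −log10 p over the libraries with a call. Points are shares and bars 95% Wilson intervals for desert, other intergenic and genic regions. The desert points lead in the 3 weaker quintiles, at 13.5, 13.4 and 7.60%, and all classes come close to 0 in the strongest.

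The members lay a median of 413 kb from the nearest protein-coding TSS, from 200.02 kb to 5456 kb. The share called in all 6 libraries was 45.9% among 2092 members at 200 to 300 kb, 43.3% at 300 to 500 kb, 41.8% at 500 to 1000 kb and 36.4% among 962 members beyond 1000 kb. The median percentile was 35.2, 33.9, 33.3 and 32.1 in the same bins. The share within 1 Mb of an assembly gap was 4.64, 3.95, 8.68 and 24.9%, and away from gaps the share called in all 6 was 46.6, 43.8, 43.4 and 38.8%. The DMSO-only share showed no such order, at 9.70, 9.22, 8.79 and 10.2% in the same bins. On either side of the limit, 26 of 263 members at 200 to 210 kb were DMSO-only (9.89%), and so were 21 of 257 intergenic regions at 190 to 200 kb (8.17%).

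The strongest members were ranked by their lowest percentile over the 6 libraries, which required a call in every library. The first was at chr9:62837292-62838884 in the desert between CNTNAP3C and FOXD4L5, at percentile 98.7 or more in every library. It was a near-identical copy of another region and lay within 1 Mb of an assembly gap. The next, 290 kb from NFE2L3, a CNC family bZIP transcription factor, is at chr7:25862202-25862863. Its percentiles were 98.5, 97.3 and 98.9 with CB-6644 and 97.6, 99.3 and 99.1 with DMSO, so the groups overlapped. The same held for a region 207 kb from PKDCC, a secreted protein kinase (chr2:41840771-41841482), at percentiles 97.3 to 98.6. A region in the lncRNA gene C5orf67, 226 kb from MAP3K1, a kinase of the JNK pathway (chr5:56588690-56589514), stood at 97.1 to 98.4 with CB-6644 and 98.9 to 99.3 with DMSO. Among the 100 strongest members 50 overlapped a lncRNA gene, 19 had their midpoint within 1 kb of a lncRNA TSS and 0 had a CTCF match, while 17 of the 500 strongest (3.40%) had one. The widest members spanned 1870 bp (chr9:40108611-40110480), 1852 bp (chr19:28632126-28633977) and 1678 bp (chr5:56479719-56481396). The second of these overlapped 3 lncRNA genes and kept percentiles of 87.3 to 90.9 in all libraries.

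Another of the 5 strongest members, in the KCNJ18–WSB1 desert (chr17:22521207-22521844), matched the mitochondrial genome with 79.9% identity over 453 bp. Its fold enrichment of 48.1 to 72.1 stood out even among strong peaks. In all, 14 members resembled mitochondrial DNA, with 76.5 to 96.2% identity, of 43 such reproducible regions. Such segments arise when mitochondrial DNA is copied into the nucleus. Of the 14, 12 were called in neither short-fragment library and 11 in all 4 long-fragment libraries. None was DMSO-only or CB-6644-only. Peaks on the mitochondrial genome numbered 21 and 13 in the short-fragment CB-6644 and DMSO libraries and 2 to 4 in the others.

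The 5 leading DMSO-only members were chosen by their lowest percentile over the 3 DMSO libraries. The first lay 261 kb from TFEC, a bHLH-ZIP transcription factor (chr7:115707214-115707705), and stood at percentiles 84.4, 80.6 and 80.7 with fold enrichments of 38.0, 30.3 and 25.7. It matched the ATF4-CEBP, E-box and NF-kB motifs. The second lay in the lncRNA gene LINC00824, 691 kb from MYC (chr8:128428096-128428587), at percentiles 72.7, 72.9 and 79.9, and held an ATF4-CEBP match. By the rule that chose them, both ranked high in every DMSO list and neither had a peak in any CB-6644 list. The others were 298 kb from KCND2, a potassium channel gene (chr7:119974905-119975395), in the lncRNA gene PCAT1 (chr8:126857221-126857627), and 1007 kb from SLC16A7, a monocarboxylate transporter gene (chr12:60775742-60776221). Their percentiles ran from 58.8 to 80.5, and the regions near KCND2 and in PCAT1 had an AP-1 match.

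The 66 CB-6644-only members had a median width of 225 bp, against 273 bp for the 674 DMSO-only members. The first by lowest percentile, in LINC00882 and 234 kb from CCDC54 (chr3:107143311-107143549), stood at percentiles 63.8, 77.0 and 61.2 in the 3 CB-6644 lists. It held an E-box. The next lay 659 kb from the cadherin gene CDH18 (chr5:19179686-19179982), at 59.0, 55.3 and 49.5, and 286 kb from ADGRL4, an adhesion receptor gene (chr1:79568484-79568713), at 53.8, 44.4 and 47.1. A region 234 kb from ETAA1, which encodes an activator of ATR (chr2:67631606-67631887), stood at 39.8, 56.1 and 53.0. By the rule that chose them, none had a peak in any DMSO library.

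For the 3072 members called everywhere, strength was ranked anew among the 42089 regions called in all 6 libraries. The median change from DMSO to CB-6644 was −0.01 percentiles, so on this scale members as a whole neither rose nor fell. Every CB-6644 rank lay below every DMSO rank in 570 members (18.6%), and this pattern held for 13.4% of all 42089 regions. Every CB-6644 rank lay above in 556 members (18.1%), against 13.3%. Shifts in both directions were therefore more common among members than over all regions, which include promoters at 7.75 and 7.10%. Other intergenic regions gave 14.4 and 15.1%, and regions inside genes, at 16.5 and 16.5%, came closer to the members. Ranked in the whole list of each library, the median change was −2.64 percentiles over all regions called everywhere and −5.13 over the members. On that scale 30.7% of members (24.6% of all) lay lower with CB-6644 and 8.40% (5.61% of all) higher.

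The 2 largest falls were in the same desert, between KHDRBS3 and FAM135B, and both in LINC02055. At chr8:136234930-136235218 the rank was 85.2, 69.0 and 78.6 in DMSO replicates 1 to 3 and 10.1, 17.7 and 8.59 in CB-6644 replicates 1 to 3, a change of −65.5. At chr8:136071117-136071434 it was 66.5, 68.2 and 75.3 with DMSO and 3.93, 10.2 and 4.09 with CB-6644, a change of −63.9. These members were picked as the largest falls without overlap of the groups, so the separation follows from the choice. The third lay 841 kb from IFTAP (chr11:37450652-37451034), where the DMSO ranks of 63.1 to 65.3 and the CB-6644 ranks of 6.10 to 8.23 were the tightest of the 4 described here. A region in LINC01117 (chr2:176745578-176745913), with an IRF match, fell from 66.4 ± 11.3 to 9.41 ± 7.44 (SD, n = 3 each).

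The largest rise was at chr21:8213016-8213388, in a GC-rich sequence (83.1%) within 1 Mb of an assembly gap, from 25.5 ± 9.94 to 80.02 ± 18.2. It lay in the stretch from the chromosome end to TPTE. Copies were searched for only among reproducible regions, so its reads may come from copies elsewhere, which was not tested. The other rises lay in ordinary desert sequence. A region 243 kb from the cadherin gene CDH10 (chr5:24401823-24402033) had ranks of 10.5, 4.75 and 10.2 with DMSO and 61.7, 73.3 and 48.9 with CB-6644. Another, 556 kb from SEMA6A, a semaphorin gene (chr5:117131116-117131378), had ranks of 4.80, 5.07 and 2.98 with DMSO and 49.5, 57.3 and 53.9 with CB-6644. A site among the lowest of the regions called everywhere thus stood near the middle of them with CB-6644. The region in MMADHC-DT, a lncRNA gene that runs divergently from MMADHC (chr2:149885400-149886234), rose from 38.7 ± 1.03 to 84.8 ± 4.68. A region 287 kb from TENM3 (chr4:181857349-181857919) rose from 26.6 ± 4.61 to 70.7 ± 6.24. Of the 5 risers 3 held an E-box and 2 an NF-kB match.

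**Figure D3:**
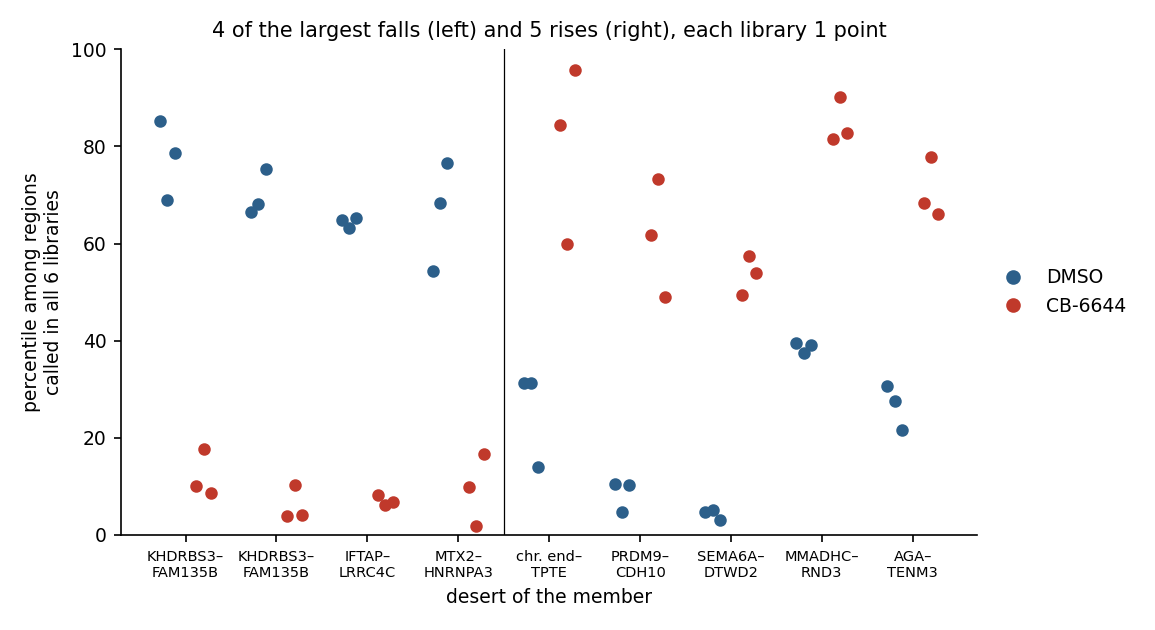
Percentile among the regions called in all 6 libraries for 4 of the 5 members with the largest fall (left) and the 5 with the largest rise (right) whose groups do not overlap. Each point is 1 library and each member is named by its desert. The falls start at 54.2 to 85.2 with DMSO and end at 1.77 to 17.7 with CB-6644. The rises were chosen the same way in the other direction.

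The 7186 members fell into deserts of unequal density. A desert is here the stretch between 2 flanking protein-coding genes that met the distance rule. Of 1051 deserts 843 held a member, with a median of 6 and at most 58. The 83 deserts with at least 20 members held 2476 of them. The fullest was KHDRBS3–FAM135B, which spans 2.39 Mb beside the RNA-binding protein gene KHDRBS3, with 58 members. Its all-6 members numbered 30, of which 8 lay lower and 5 higher with CB-6644, and a further 7 members were DMSO-only and 0 CB-6644-only. MYC–GSDMC, the desert downstream of the MYC oncogene, had 57 members in 1.64 Mb. Here 38 were called in all 6, 2 were DMSO-only and 1 CB-6644-only, and 10 of the 38 lay lower and 5 higher. The 500 kb of this desert nearest to MYC, a division made after seeing the values, held 25 of the 38, among them 8 of the 10 that lay lower and 4 of the 5 that lay higher. For comparison, 9.38% of all members and 5.66% of all reproducible regions were DMSO-only. Of all members called in all 6, 18.6% lay lower and 18.1% higher. Counts within single deserts are small, and differences between deserts were not tested.

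**Figure D4:**
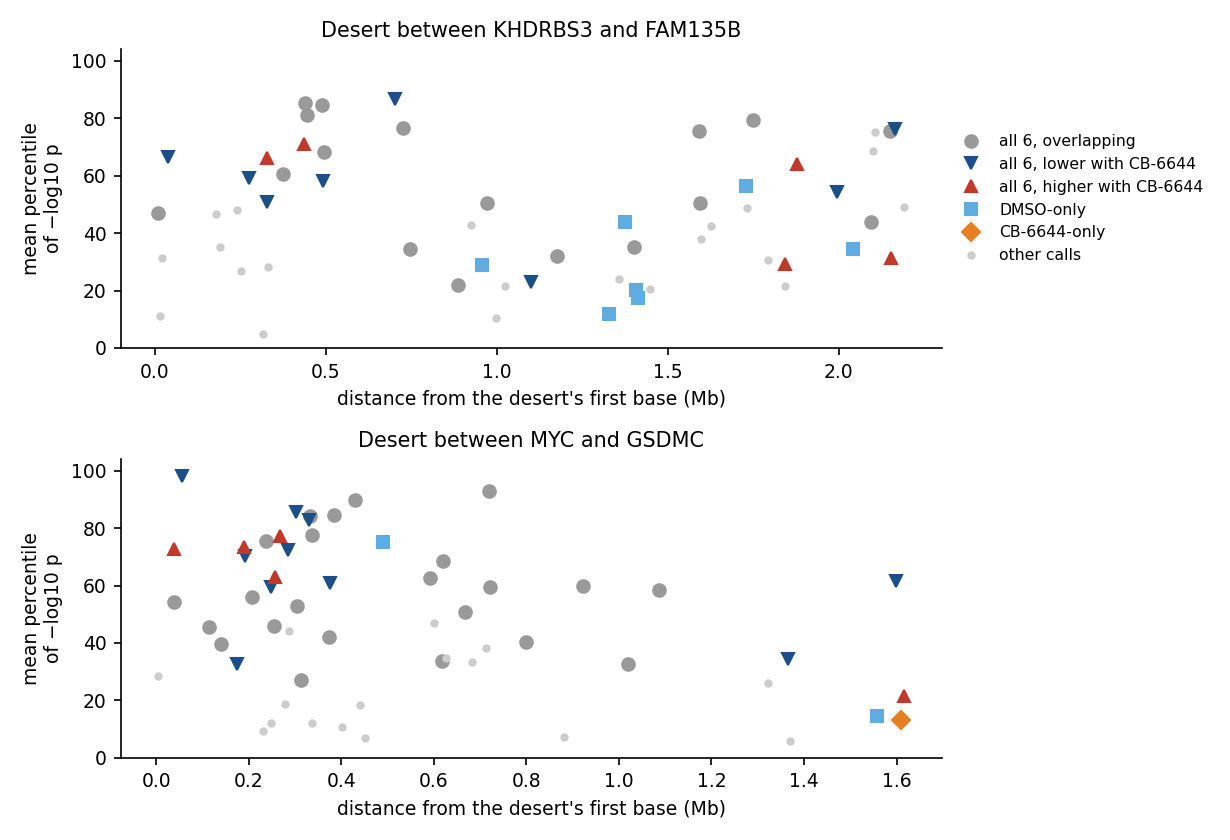
Members of the 2 fullest deserts by distance from the desert's first base, in Mb, and mean percentile of −log10 p over the libraries with a call. Symbols give the call pattern and, for members called in all 6 libraries, whether every CB-6644 rank lay below or above every DMSO rank. The DMSO-only members of KHDRBS3–FAM135B, 7 in all, lie more than 500 kb from its first base, and its largest falls in the first 500 kb.

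The other full deserts differed in kind. The stretch from the end of chromosome 21 to TPTE held 51 members, all within 1 Mb of an assembly gap, and 17 of them were called in all 6 libraries. CDC73–KCNT2, beside the gene of the PAF1 complex subunit CDC73, held 50 members with 7 DMSO-only, and of its 25 members called in all 6, 9 lay lower and 3 higher. AGA–TENM3 held 47 members with 2 DMSO-only, and 4 lay lower and 4 higher. Members were usually spaced widely, with a median of 42.9 kb to the next one on the chromosome, and 4129 (57.5%) had no other within 12.5 kb. Clusters of at least 5 numbered 54 and held 339 members. Of the members in these clusters 37.2% were called in all 6 libraries, against 42.7% of members alone. The DMSO-only shares were 8.55 and 9.52%. Outside the gap-flanking sequence the largest was a run of 10 members over 57.3 kb in the MYC–GSDMC desert, of which 6 were called in all 6 libraries and 0 in 1 group only. A run of 8 in the MAN2A1–TMEM232 desert (chr5:109901120-109950922) had all 8 called in every library. These clusters were picked out after their values were seen.

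Of 31 plasma cell, B cell and myeloma regulators looked up, 13 bordered a desert, and their 16 deserts held 225 members. Of these, 21 (9.33%) were DMSO-only, near the 9.38% of all members, and 3 CB-6644-only. Over the 16 deserts 121 members were called everywhere, of which 31 lay lower with CB-6644 (25.6%, against 18.6% of all such members) and 17 higher (14.0%, against 18.1%). Desert medians of the change were below 0 in 7 and above 0 in 8 of the 15 that had one. MEF2C–CETN3, beside the B cell factor MEF2C, had 29 members, of which 10 were called in all 6 and 5 were DMSO-only. CLINT1–EBF1, next to the early B cell factor EBF1, had 20 members with 4 DMSO-only, and of its 7 called everywhere 1 lay lower and 2 higher (median change 5.72 percentiles). KCNJ2–SOX9 had 14 members with 4 DMSO-only, and of its 3 called everywhere 1 lay lower and 2 higher (median change 11.1). The desert on the other side of SOX9, toward SLC39A11, was the densest of the 16, with 25 members in 0.325 Mb (76.9 per Mb), all in lncRNA genes. Of those, 17 were called in all 6 libraries and 1 was DMSO-only. RNF144A–ID2, beside the helix-loop-helix inhibitor ID2, had 28 members and 17 called everywhere, of which 8 lay lower with CB-6644 and 0 higher (median change −10.9 percentiles). PREP–PRDM1 borders the gene of Blimp-1, which drives plasma cell differentiation. It had 7 members, 4 called everywhere, and 3 of the 4 lay lower and 0 higher. The 2 deserts around MAF, a bZIP factor activated in a subset of myelomas, held 5 and 6 members, with 0 DMSO-only and 1 CB-6644-only.

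Sequence features were not used by the rule. The GC content around the summit had a median of 44.3%, against 49.3% in other intergenic and 50.2% in all reproducible regions. It was 40.5% in DMSO-only, 45.8% in CB-6644-only and 46.3% in all-6 members. Only 240 members (3.34%) had at least 10 CpG in 201 bases, against 23.5% of all reproducible regions and 81.4% of promoters. Of these 240, 155 were called in all 6 libraries and 3 were DMSO-only, while 65 lay at a lncRNA TSS and 106 within 1 Mb of a gap. Members at a lncRNA TSS, 291 in all, were called in all 6 libraries in 55.3% of cases, against 42.2% of other members, and 3.78% of them were DMSO-only, against 9.62%.

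Motif matches were then counted on both strands, up to 100 bp from the strongest summit. IRF, the element read by interferon regulatory factors such as the plasma cell factor IRF4, was matched in 16.9% of members (95% Wilson interval 16.1 to 17.8) and 10.2% of all reproducible regions. RUNX was matched in 16.2% and 11.3%, and AP-1 in 13.5% and 10.5%. ATF4-CEBP, read by heterodimers of the stress factor ATF4 with C/EBP proteins, was matched in 5.22% and 3.79%. Other intergenic regions stood at 10.3% for IRF, 12.1% for RUNX, 12.4% for AP-1 and 4.06% for ATF4-CEBP. For AP-1 they thus came close to the members. Lower among members were CTCF, the looping and insulator factor, at 3.65% against 5.47% of all reproducible regions and 7.77% of other intergenic ones. NF-kB stood at 4.36% against 6.71% of all reproducible regions, ETS at 1.21% against 4.17% and CRE at 0.181% against 0.765%. Other intergenic regions gave 6.97% for NF-kB, 2.32% for ETS and 0.522% for CRE, so they shared part of the lower ETS and CRE shares. E-box matches were about as common in members, at 28.9%, as in all reproducible regions, at 27.9%. A match is a description of letters and does not show binding.

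The motifs differed most by call pattern. ATF4-CEBP was matched in 89 of 674 DMSO-only members (13.2%, 10.9 to 15.97) and 122 of 3072 all-6 members (3.97%). IRF was matched in 18.7% of DMSO-only, 14.5% of all-6 and 4.55% of CB-6644-only members. CTCF was matched in 4.65% of all-6 members and was rare in both group-only classes. It was found in 3 of the 674 members called with DMSO alone (0.445%) and 0 of the 66 called with CB-6644 alone (upper Wilson bound 5.50%). The 66 CB-6644-only members had an E-box in 30 cases (45.5%, 34.0 to 57.4), against 23.6% of DMSO-only members, and NF-kB in 8 (12.1%), against 2.08%. Other intergenic regions gave like shares, with ATF4-CEBP in 13.6% and 2.07% and E-boxes in 24.0% and 42.0% of their DMSO-only and CB-6644-only regions.

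Members called in all 6 libraries were divided by the direction of their rank. IRF was matched in 18.8% of the 570 that lay lower with CB-6644 (15.8 to 22.2) and 9.17% of the 556 that lay higher (7.05 to 11.9). ATF4-CEBP was matched in 6.67% and 2.52%. The reverse held for MAF, at 3.68% of the lower (2.42 to 5.57) and 13.3% of the higher (10.7 to 16.4), and for CTCF, at 0.877% and 5.40%. MAF factors are bZIP proteins expressed in plasma cells and myeloma. E-box matches were frequent on both sides, at 34.6% and 39.7%, with overlapping intervals.

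**Figure D5:**
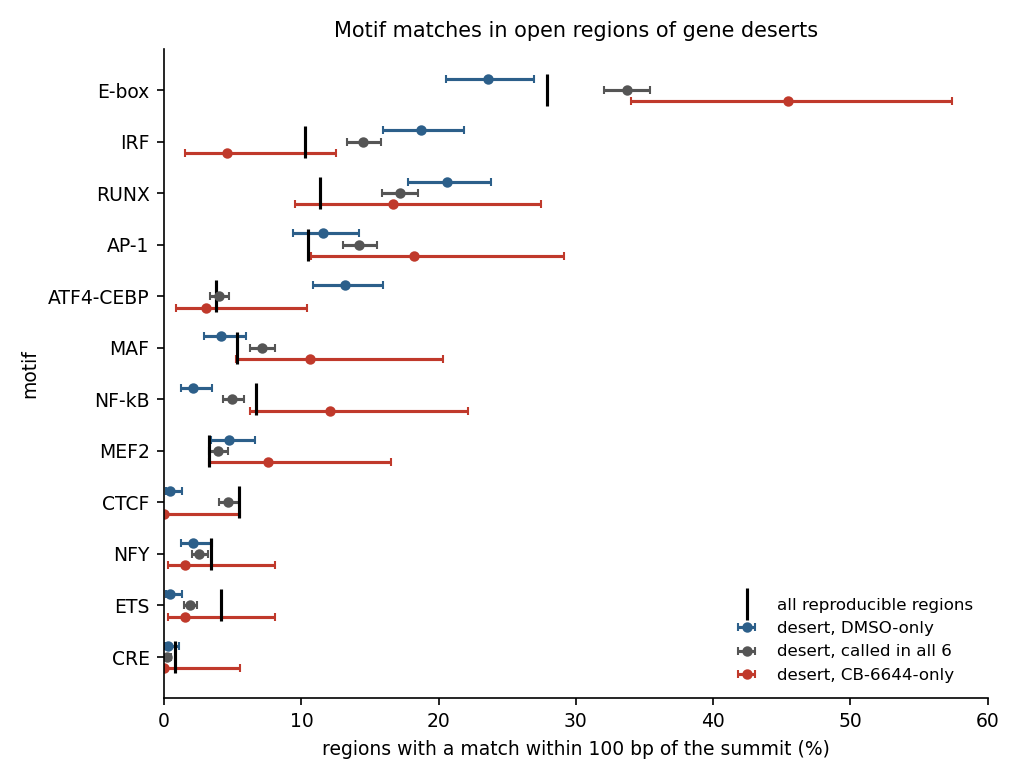
Percentage of members with at least 1 match to each of 12 motifs within 100 bp of the strongest summit, for DMSO-only (674), all-6 (3072) and CB-6644-only (66) members, with 95% Wilson intervals. Black ticks mark all 70969 reproducible regions. ATF4-CEBP stands at 13.2% in DMSO-only members and the E-box at 45.5% in CB-6644-only members.

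Members near assembly gaps and near-identical copies were called less regularly than the rest. Of the 588 near assembly gaps 28.9% were called in all 6 libraries and 6.63% were DMSO-only, against 43.98% and 9.62% of the others. Of the 353 near-identical copies 27.5% were called in all 6 and 3.68% were DMSO-only. Over all members, 181 (2.52%) were called in all 4 long-fragment and in neither short-fragment library, against 1.22% of all reproducible regions. That pattern was more common near gaps (12.4%) and among copies (13.03%). The 38 members at antigen receptor segments included 19 called in all 6 libraries and 0 called in 1 group only.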

How the data were processed

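Omni-ATAC libraries from MM.1S cells, 3 treated for 72 h with CB-6644 at 120 nM and 3 given DMSO, were analysed from 1 peak list per library, and groups and replicate numbers came from the labels. The submitters' processing notes name Bowtie2 2.4.2 and MACS3 3.0 on hg38, and the MACS3 settings are not given in the sources used here. Fold enrichment, as deposited, is a ratio of pile-up to local background from the authors' caller and is not scaled between libraries. For each peak's summit the authors also deposited −log10 p and −log10 q. The score in the deposited lists repeats these on another scale and was not used for results. The lists hold no read counts, so no count test was made. Fold and −log10 p together were solved for the background under a Poisson model.

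Members, lists, motifs and alternatives were chosen with earlier results of these data known. Peaks were classed by midpoint as promoter (within 1 kb of a protein-coding TSS), genic, desert or other intergenic. Library values were compared by exact permutation of the 6 libraries or exact sign flips, with Benjamini-Hochberg adjustment over 6 tests. Shares carry 95% Wilson intervals, which cover counting error only, and regions are not replicates. Assembly gaps were runs of N of at least 50 kb. Mitochondrial matches were BLAST 2.17.0 hits at an E value of 1e-10 over at least 50 bp. Named were the 5 fullest deserts, the 5 strongest members, the 5 leading members of each group-only class, the 5 largest falls and rises in rank without overlap of the groups, the 3 widest members and the deserts beside 31 listed regulators. Some of these are not reported here. Falls and rises were ranked among regions called in all 6 libraries. Scripts used Python 3.11.15, numpy 2.4.6, pandas 2.3.3, scipy 1.17.1 and matplotlib 3.10.9, and the merging, classes and exact tests were tested on simulated peaks. The alternatives covered peak thresholds, list lengths, each library left out, the distance limit, the TSS set, the overlap rule, the fragment-length sets and sequence near gaps.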

Additional observations from a re-analysis of the deposited data

How the results depend on the processing

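Of 83 recomputed shares, strength differences and counts 58 kept their direction and side of the threshold, or stayed within 1.5 times the count, and 0 reversed. This tally was partly fixed in advance. No exact test of the desert share can fall below the threshold of 0.05, so its side could not change. With fewer than 6 libraries the strength difference could not stay below it. The 7186 members became 1143 with the 20000 strongest peaks per library, 11230 with a distance limit of 100 kb and 2817 with 500 kb, as each alternative's own construction dictates. Leaving out 1 library at a time gave 6315 to 7034. The 674 DMSO-only members became 1331 when 2 of 3 DMSO libraries sufficed, 83 with the 20000 strongest peaks, 276 with lists of equal length, 1150 in the 4 long-fragment libraries and 261 beyond 500 kb, and ran from 761 to 1002 with 1 library left out. The 66 CB-6644-only members became 199 when 2 of 3 sufficed, 133 with lists of equal length, 200 in the long-fragment libraries, 43 where a peak had to cover 50% of the region, 105 beyond 100 kb and 29 beyond 500 kb, with 86 to 130 when 1 library was left out. The DMSO-only share of members was above that of other intergenic regions in all 17 alternatives that give it, at 1.47 to 1.72 times.

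The strength difference of −7.63 percentiles was −7.89 to −7.51 with 1 library left out (exact p = 0.0625, the smallest 5 libraries allow) and −7.54 in the 4 long-fragment libraries (exact p = 0.125, the smallest 4 allow). The desert share differed by −1.69 to −0.728 percentage points with 1 library left out and by −2.33 as a share of intergenic peaks, which was chosen after seeing the data (exact permutation test, p = 0.1). The median change in rank of −0.01 has no stable sign: it was above 0 in 8 of 15 alternatives and ran from −1.15 to 0.79 while ranks were taken among regions called in every library. It became −5.13 when ranks came from the whole list of each library, also chosen after seeing the data, and the cause was not tested. The 10 leading group-only members kept their class in 14 to 16 of 17 alternatives.

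With the replicate number as a block the desert share still differed by −1.33 percentage points (exact permutation within pairs, p = 0.25, the smallest 3 pairs allow). Deviations of same-numbered libraries correlated at −0.441, −0.186 and 0.288, so the numbers were not taken as pairs. The lists hold no read totals, a site without a peak was not detected rather than shown to be closed, and the shallower background of the CB-6644 libraries cannot be told apart from the treatment in the calls.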

Other observations

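The distal sequence near antigen receptor genes and mitochondrial-like segments aside, 3 members overlapped a microRNA gene, of which 2 were called in all 6 libraries and 0 in 1 group only. Another 141 members overlapped a pseudogene, and 9 of those were DMSO-only (6.38%). The deserts without any member numbered 208, and 120 held a single one. DMSO-only members were spread over 378 deserts, of which 74 held 3 or more, and CB-6644-only members over 61, of which 5 held 2. The deserts with the most DMSO-only members, 7 each, were SPDYE21–AUTS2, KHDRBS3–FAM135B, GRIK2–HACE1 and CDC73–KCNT2.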
